A study of Mus musculus with 7 samples.

Results

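Intraepithelial lymphocytes are T cells that live between the epithelial cells of the gut, and most of those in the small intestine carry CD8 and cytotoxic granules. The transcripts of 10 genes that mark these cells, out of 14795 genes measured, were followed in mouse duodenum with and without the fatty acid receptor PPARα in the gut epithelium. The genes encode chains of the T cell receptor complex (Cd3e, Cd3g), the CD8 coreceptor (Cd8a), surface molecules of T cells (Cd7, Cd2), homing and retention proteins (Itgae, Ccr9), granzymes (Gzma, Gzmb) and a chemokine (Ccl5). They were picked by symbol as known markers, keeping those with a row in the table, and the rule itself used no measured value, although earlier results of these data were known when it was made.

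The 3 control libraries came from Ppara lox/lox mice and the 4 others from Ppara I-KO mice, which carried the same floxed alleles with Villin-Cre. Per the labels the strain was C57BL/6, food was taken away for 6 h and given back for 6 h before sacrifice, and replicates were biological. The methods of the study name the controls as lox/lox littermates and the donors of the duodena as males on high-fat diet (HFD). They describe the background of all mice as predominantly, not wholly, C57BL6/J. No age was given for these libraries in the sources used here. Villin-Cre acts in epithelium, so the lymphocytes themselves were not its target. Each library was whole duodenal RNA, in which fewer cells of a type and less RNA per cell cannot be told apart.

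As background, the CD3 chains carry the signal of the T cell receptor into the cell, and CD8 binds the class I molecules that present antigen. Integrin αE, encoded by Itgae, pairs with the β7 chain and holds the lymphocyte to E-cadherin on enterocytes, while CCR9 guides T cells to the small intestine along CCL25. Granzymes are serine proteases that enter a target cell after perforin opens the way. Interleukin 15, presented by the epithelium on its receptor chain Il15ra, keeps these lymphocytes alive, and butyrophilin-like proteins of enterocytes select some of their γδ subsets.

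The 10 genes lie on 6 chromosomes (GENCODE M21, GRCm38). Cd3g (chr9:44969572-44980431, minus strand) and Cd3e (chr9:44998740-45009627, minus strand) are neighbours, with start sites 29196 bp apart, and the start of Cd3d is 1355 bp from that of Cd3g. Ccr9 is on the same chromosome (chr9:123678439-123784330, plus strand). Chromosome 11 holds Itgae (chr11:73090583-73147446, plus strand), Ccl5 (chr11:83525778-83530518, minus strand) and Cd7 (chr11:121036747-121039418, minus strand). Cd8a is at chr6:71373427-71379173 on the plus strand, and Cd2 at chr3:101275899-101287939 on the minus strand. Gzma is at chr13:113093825-113100981 and Gzmb at chr14:56258838-56262260, both on the minus strand. The models of Itgae, Cd7, Cd3e and Ccr9 overlap other genes, among them Haspin on the strand opposite Itgae and Slc6a20a and Lztfl1 opposite Ccr9. Since the strand setting of the authors' counting was not given, reads of these 4 genes may include some of an overlapping gene.

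RefSeq start sites (GRCm38.p6) were at hand for 6 of the 10 genes (Cd3e, Cd3g, Cd8a, Ccr9, Gzma and Gzmb). The 120 bases before the start are shown for a receptor chain and for both granzymes, since the levels of the granzymes are set against Cd3e in the results that follow, with matches to 2 motifs in capitals. The Cd3e window is chr9:45009612-45009731, the Gzma window chr13:113100982-113101101 and the Gzmb window chr14:56262335-56262454, each read on the minus strand, 5′ to 3′.
Cd3e: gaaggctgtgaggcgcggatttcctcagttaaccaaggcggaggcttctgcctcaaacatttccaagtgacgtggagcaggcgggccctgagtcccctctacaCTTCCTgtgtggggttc
Gzma: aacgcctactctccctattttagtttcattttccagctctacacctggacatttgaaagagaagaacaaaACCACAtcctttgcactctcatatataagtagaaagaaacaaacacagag
Gzmb: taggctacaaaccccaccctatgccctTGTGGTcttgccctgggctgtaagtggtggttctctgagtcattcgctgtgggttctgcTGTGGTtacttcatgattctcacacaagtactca
The capitals mark TGTGGT or its reverse complement ACCACA, the core that RUNX factors bind, and AGGAAG or its reverse complement CTTCCT, a core of ETS factors. The RUNX core began 50 bases before the start of Gzma, and 93 and 34 bases before that of Gzmb, and 6.72% of 32851 mouse promoter windows of this length hold it on either strand. The ETS core began 17 bases before the start of Cd3e and 23 bases before that of Ccr9, against 16.3% of all windows. CTTTGA on either strand (a TCF/LEF core, 6.10% of windows) and a forward TATAAA (4.19%) had no match in the 6 windows, and none of the matches shown overlaps another. These matches describe letters only. The RefSeq start of Gzmb lies upstream of the GENCODE model, so its window is that of a longer transcript form.

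All 10 genes were above a value of 1 in counts scaled to library size (CPM) in each of the 7 libraries. Levels of different genes were compared per kilobase of merged exons, as the mean ± SD of the 3 lox/lox libraries. Gzma stood highest at 76.7 ± 5.85 CPM per kb, followed by Ccl5 at 36.6 CPM per kb, Gzmb at 18.4 and Cd7 at 17.8, with the last pair apart by less than their spread. Cd8a (7.13), Itgae (5.72), Cd3g (4.47) and Cd3e (3.25) came next, then Cd2 (2.25), and Ccr9 was lowest at 1.05 CPM per kb. Per length, both granzymes and Ccl5 were above both receptor chains. The order of the middle genes depends on the gene model. By the longest principal transcript in place of merged exons, Cd3g (14.3 CPM per kb) and Cd3e (9.08) stood above Cd8a (8.29) and Itgae (6.82), Cd7 (20.5) stood above Gzmb (18.4), and Gzma (87.9), Ccl5 (66.0) and Ccr9 (2.08) kept their places.

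The deleted gene was looked at first. Ppara measured 53.4, 49.3 and 63.2 CPM in lox/lox 1 to 3, and 33.0, 40.6, 47.5 and 69.9 CPM in I-KO 1 to 4. The library labelled I-KO replicate 4 was above every control, and the difference of -0.25 on the log2(CPM + 1) scale had an adjusted p of 0.954 (limma). A total over the whole gene can hold reads of exons outside the deletion and of cells outside the epithelium, so it does not check the labels.

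None of the 10 genes differed between Ppara lox/lox and Ppara I-KO duodena beyond the spread of the libraries. With limma on log2(CPM + 1) and genotype as the only term, 0 of 10 passed an adjusted p of 0.05, and 0 of 10 passed an unadjusted p of 0.05. Over all 13399 genes tested, 0.0299% passed the adjusted threshold (4 genes; 0.0224% higher in I-KO, 0.00746% lower) and 4.74% the unadjusted one (2.32% higher, 2.42% lower). The groups overlapped for all 10 genes, whereas they did not overlap for 6.19% of all genes (2.91% higher in I-KO, 3.28% lower). The I-KO mean of log2 values was higher for 4 genes and lower for 6, and the median difference was -0.03, beside 0.0017 for all genes. The intervals leave room for moderate changes, since their median half-width was 0.34 on the log2 scale for the 10 genes and 0.24 for all genes. In exact two-sided permutation tests over the 35 ways to split the libraries, the smallest p of the 10 was 0.486, and 0.0286 is the smallest the design allows.

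**Figure D1:**
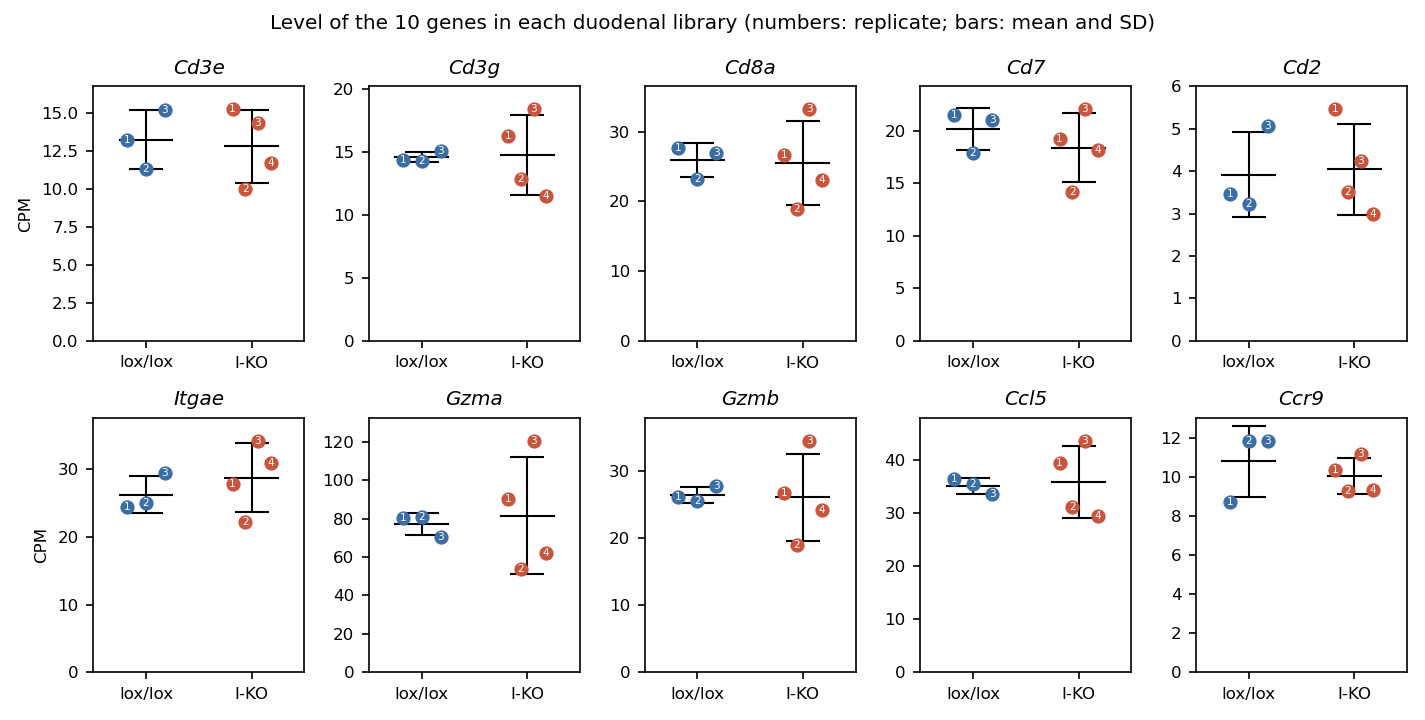
Level of each of the 10 genes in CPM (y axis, from 0) in the 3 lox/lox and 4 I-KO libraries; each point is a library with its replicate number, and bars give the mean and SD. The groups overlap in every panel, I-KO replicate 3 is the highest point in 7 of the 10 panels and I-KO replicate 2 the lowest in 6.

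The receptor chains were level between genotypes. Cd3e, the ε chain, was at 13.28, 11.32 and 15.24 CPM in lox/lox 1 to 3 and at 15.28, 10.02, 14.35 and 11.74 CPM in I-KO 1 to 4. Its I-KO libraries spanned the whole control range and passed it at both ends. The difference was -0.05 (95% interval -0.40 to 0.29, adjusted p = 0.983), which as a fold runs from 0.760 to 1.22. Cd3g, the γ chain, was at 14.42, 14.33 and 15.09 CPM in the controls and at 16.33, 12.85, 18.43 and 11.49 CPM in the I-KO libraries. The controls lay close together, with 2 I-KO libraries above all of them and 2 below, and the difference was -0.0069 (-0.34 to 0.33, adjusted p = 0.997). The other chains overlapped between groups as well, with means of 6.39 ± 0.93 CPM in controls and 6.50 ± 1.07 CPM in I-KO for Cd3d, the δ chain, and of 3.01 ± 0.75 and 3.29 ± 0.70 CPM for Cd247, the ζ chain (SD, n = 3 and 4). Lck and Zap70, the kinases that act on these chains, were at 21.1 ± 2.87 and 6.91 ± 0.62 CPM in controls, and at 21.5 ± 4.77 and 7.08 ± 1.52 CPM in I-KO.

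Of the coreceptor and the T cell surface molecules, none moved with genotype. Cd8a was at 27.65, 23.16 and 26.95 CPM in the controls and at 26.63, 18.97, 33.21 and 23.11 CPM in the I-KO libraries. Its I-KO values reached beyond the controls in both directions, and the difference was -0.05 (-0.43 to 0.33, adjusted p = 0.987). Cd7, found on T and NK cells, was at 21.52, 17.84 and 21.02 CPM against 19.16, 14.18, 22.03 and 18.15 CPM. It had the most negative difference of the 10, -0.14 (-0.45 to 0.18, adjusted p = 0.954), with 1 I-KO library below the controls and 1 above them, and without I-KO replicate 2 the difference was -0.024 and no longer the most negative. Its ligand gene Sectm1b had means of 194 ± 22.8 CPM in controls and 221 ± 38.9 CPM in I-KO. Cd2, an adhesion receptor for CD48, had the fewest reads, 70 to 129 per library, so that counting alone gives a coefficient of variation of up to 12.0%. Cd2 was at 3.46, 3.22 and 5.07 CPM in the controls and at 5.46, 3.5, 4.24 and 2.98 CPM in the I-KO libraries, a difference of 0.03 (-0.38 to 0.44, adjusted p = 0.995). The β chain of the coreceptor, Cd8b1, lay well below the α chain, with means of 2.18 ± 0.56 and 2.35 ± 0.44 CPM. Per kilobase of merged exons the ratio of Cd8a to Cd8b1 ran from 3.35 to 5.79 over the 7 libraries.

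The retention and homing receptors overlapped too. Itgae was at 24.39, 24.92 and 29.35 CPM in the controls and at 27.73, 22.19, 34.16 and 30.80 CPM in the I-KO libraries. With 2 I-KO libraries above all controls and 1 below, it had the largest positive difference of the 10, 0.11 (-0.21 to 0.44, adjusted p = 0.963). Its partners were near level, with 28.7 ± 3.47 CPM in controls and 27.3 ± 5.18 CPM in I-KO for the β7 chain (Itgb7), and 657 ± 17.3 and 676 ± 39.1 CPM for E-cadherin (Cdh1). Ccr9 was at 8.69, 11.84 and 11.83 CPM against 10.35, 9.27, 11.18 and 9.34 CPM. All 4 I-KO libraries lay inside the control range, and the difference was -0.09 (-0.36 to 0.19, adjusted p = 0.971). Its ligand gene Ccl25 was steady, at 387 ± 31.9 CPM in controls and 392 ± 9.14 CPM in I-KO.

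None of the effector genes differed with genotype, and Gzma had the widest spread of the 10 genes within the knockout. Gzma was at 80.37, 80.73 and 70.37 CPM in the controls and at 89.99, 53.86, 120.50 and 62.01 CPM in I-KO 1 to 4, a range of 2.24-fold among the I-KO libraries. The controls clustered, and the I-KO libraries lay 2 above and 2 below them. The means were 77.2 ± 5.88 and 81.6 ± 30.2 CPM, the difference was 0.01 (-0.54 to 0.56, adjusted p = 0.997), and its interval, a fold of 0.687 to 1.48, was the widest of the 10. With 1371 to 2275 reads per library, counting error in Gzma was at most 2.70%. Gzmb was at 26.17, 25.52 and 27.78 CPM against 26.73, 19.01, 34.59 and 24.22 CPM, a difference of -0.05 (-0.43 to 0.33, adjusted p = 0.987). Ccl5, a chemokine that attracts T cells, was at 36.34, 35.48 and 33.47 CPM against 39.47, 31.03, 43.59 and 29.43 CPM, a difference of 0.01 (-0.30 to 0.33, adjusted p = 0.997). In all 3 effector genes I-KO replicate 3 was the highest library, and I-KO replicates 2 and 4 were the lower pair of the I-KO group. Perforin (Prf1), the partner of the granzymes, was low, with means of 2.43 ± 0.27 and 1.81 ± 0.65 CPM and a difference of -0.31 (-0.68 to 0.06, adjusted p = 0.954). The granzyme inhibitors Serpinb9 (8.84 ± 1.15 and 8.41 ± 0.75 CPM) and Serpinb6b (4.94 ± 0.92 and 5.13 ± 0.43 CPM) were close between groups.

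**Figure D2:**
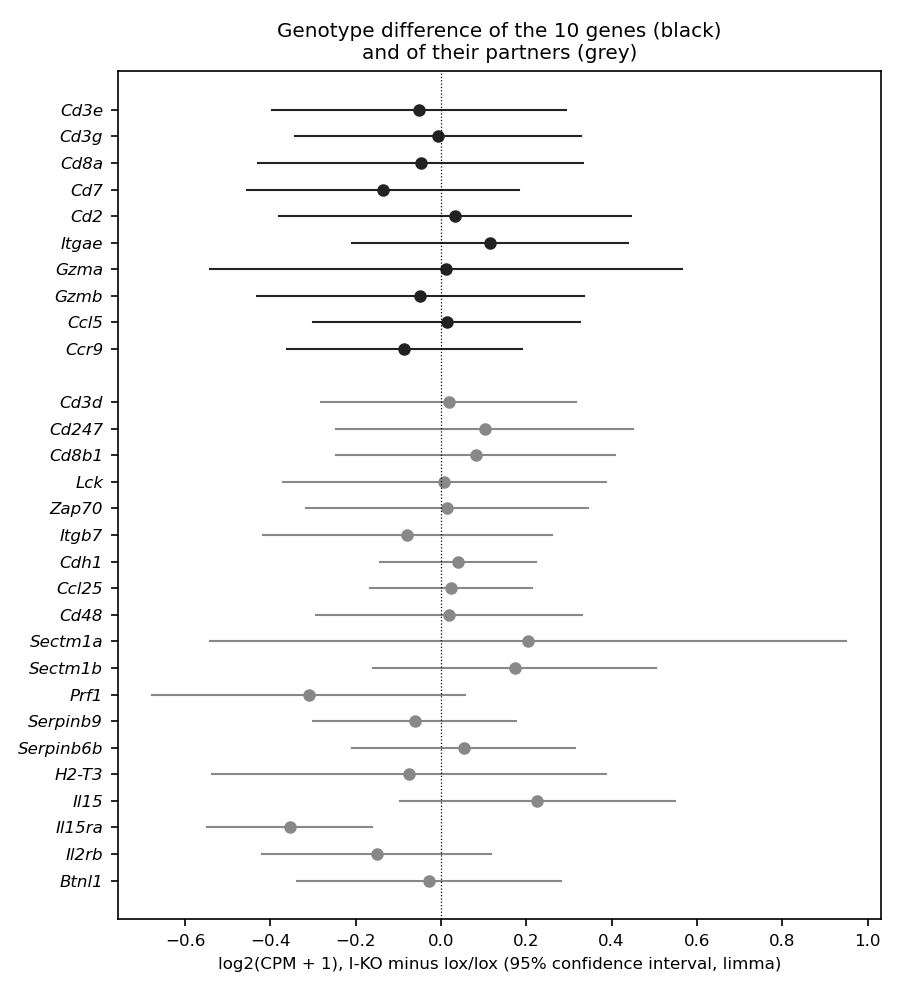
Difference of I-KO minus lox/lox on the log2(CPM + 1) scale (x axis) for the 10 genes (black) and for their partners (grey); points are limma estimates and lines 95% confidence intervals. The line of each of the 10 genes crosses 0, and among the partners drawn that of Il15ra does not.

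The 10 genes were spread more widely among the I-KO libraries than among the controls, a difference in spread that was not tested. The coefficient of variation was larger in the I-KO group for 9 of the 10 genes, against 65.9% of all genes. Its median over the 10 genes was 9.62% in lox/lox and 20.2% in I-KO, beside 8.34% and 11.2% for all genes tested. I-KO replicate 3 was highest for 7 of the 10 genes and lowest for none, and 15.0% of all genes tested were highest in that library. I-KO replicate 2 was lowest for 6 genes and among the lowest pair for 9, and 8.16% of all genes were lowest there. I-KO replicate 4 was lowest for Cd3g, Cd2 and Ccl5, and I-KO replicate 1 was highest for Cd3e and Cd2. Summed over the 10 genes, the controls gave 256, 248 and 256 CPM, and I-KO 1 to 4 gave 277, 195, 336 and 223 CPM. Each of the 45 pairs among the 10 genes had a positive Pearson r across the 7 libraries, which share their scaling and RNA. The median r was 0.64 and the range 0.27 to 0.96. The pairs share genes and libraries, so they are not independent, and pairs of all genes were not computed for comparison. Leaving out I-KO replicate 3 took the Gzma difference to -0.20, and leaving out I-KO replicate 2 took it to 0.18.

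Several other measures moved with these libraries. In I-KO replicate 3 the ribosomal RNA gene Rn45s reached 33514 CPM, while the 6 remaining libraries held 1789 to 4082 CPM. Lars2, a mitochondrial leucyl-tRNA synthetase gene, was at 6633 against 329 to 786 CPM. Its levels put the libraries in the same order as Rn45s, so it is not counted as a separate measure. Rmrp and Rpph1, genes of structural RNAs, were at 6.3 and 3.92 CPM in I-KO replicate 3 and below 1 CPM elsewhere. The summed Paneth cell markers (7 of 8 in the table) were lowest in that library, at 1128 CPM, and highest in I-KO replicate 2, at 2911 CPM, with the others between 1506 and 2294 CPM. The 12 summed enterocyte markers, the defining markers of the labelled tissue, were all in the table and ran the other way, at 64576 CPM in I-KO replicate 3 and 50372 CPM in I-KO replicate 2. Their part in the spread of the 10 genes was not tested. Pancreatic acinar transcripts (16 of 17 markers) summed to 458 CPM in I-KO replicate 1 and 103 CPM in lox/lox replicate 2, against 27.2 to 43.2 CPM elsewhere, and without these 2 libraries the differences of the 10 genes still lay inside the intervals given above.

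**Figure D3:**
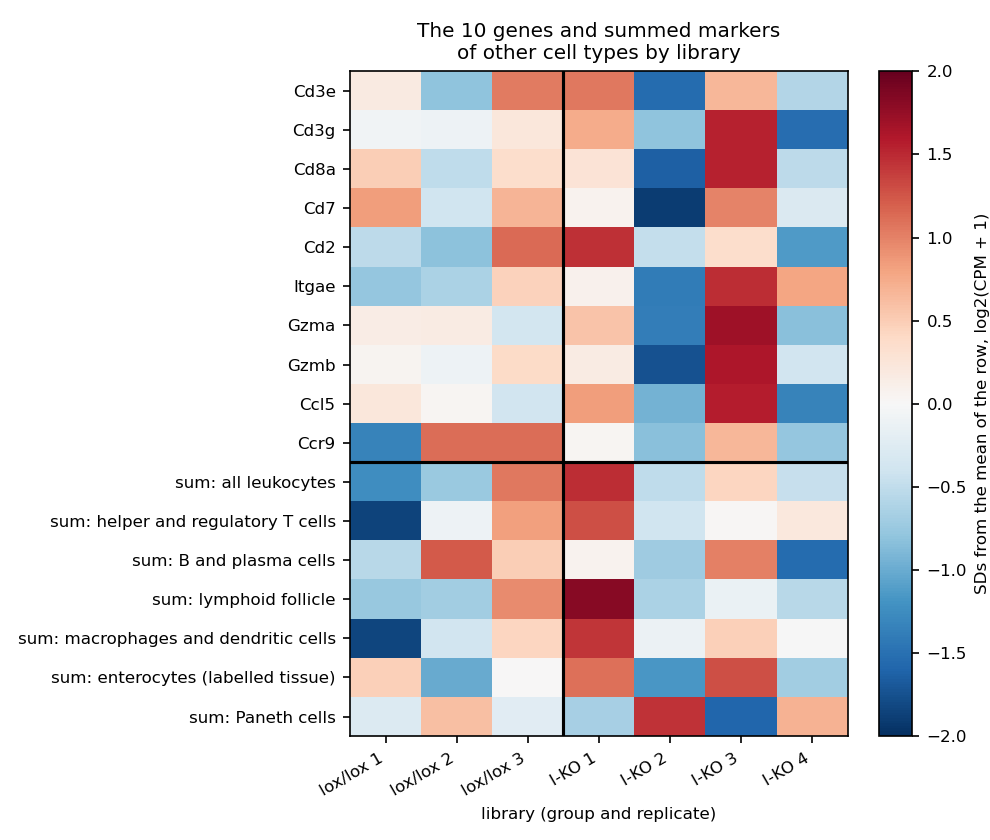
Each row is 1 of the 10 genes or the summed CPM of a list of cell type markers, each column a library; colour gives the distance from the row's mean in SDs of log2(CPM + 1), red above and blue below. Most of the 10 rows are deepest red in I-KO replicate 3 and deepest blue in I-KO replicate 2, while the rows of leukocyte, follicle and macrophage markers are reddest in I-KO replicate 1.

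Markers of other immune cells had other orders. The 13 markers of all leukocytes summed to 474 to 672 CPM in controls and 530 to 716 CPM in I-KO. Their sum was highest in I-KO replicate 1, as were those of the lymphoid follicle (10 markers, 76.5 to 117 CPM in controls and 79.0 to 146 CPM in I-KO) and of macrophages and dendritic cells (14 markers, 351 to 476 and 441 to 544 CPM). B and plasma cell markers (11, from 2596 to 4502 CPM) peaked in lox/lox replicate 2. Helper and regulatory T cells share the CD3 chains. Their markers (6 of 8) summed to 16.5 to 25.9 CPM in controls and 21.1 to 28.0 CPM in I-KO. Most of that sum came from Cd4. Such sums add different genes, so they do not rank cell types by number. Markers of NK and innate lymphoid cells (5 of 8) summed to 270 to 287 CPM in controls and 279 to 317 CPM in I-KO. Ncr1, which defines NK cells, was at no more than 0.59 CPM, and Klra8, Klra9 and Il22 were not analysed here. Mast cell markers (6 of 9, 20.1 to 28.2 CPM), those of eosinophils and neutrophils (5 of 9, 9.23 to 13.8 CPM) and those of fibroblasts, smooth muscle and endothelium (12 of 12, 1288 to 1794 CPM) stayed within these ranges. Of the markers of all these cell types, enterocyte, Paneth and acinar cells included, 0 passed an adjusted p of 0.05 (limma). An unadjusted p of 0.05 was passed by 1 of the 14 macrophage and dendritic cell markers and 1 of the 12 of enterocytes. It was also passed by 1 of the 12 of fibroblasts, smooth muscle and endothelium, beside 4.74% of all genes tested. The part of these cells in the levels of the 10 genes was not tested.

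Ratios within a library do not depend on its scaling. Set against Cd3e, the other 9 genes had ratios whose groups overlapped, and so had Gzma to Gzmb, Cd8a to Cd8b1 and Itgae to Itgb7. Over these 12 ratios the smallest p of an exact two-sided permutation test was 0.286, before any correction, for Itgae to Cd3e, at 1.99 ± 0.19 in lox/lox and 2.26 ± 0.34 in I-KO. Cd3g to Cd3e held between 0.979 and 1.28, and Cd8a to Cd3e between 1.74 and 2.31. Gzma to Cd3e ran from 4.62 in lox/lox replicate 3 to 8.40 in I-KO replicate 3, the widest range of the 12, 1.82-fold. Gzma to Gzmb moved less, from 2.53 to 3.48. The highest and the lowest value of Gzma to Cd3e came from different genotypes, and the other libraries of both lay between them.

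**Figure D4:**
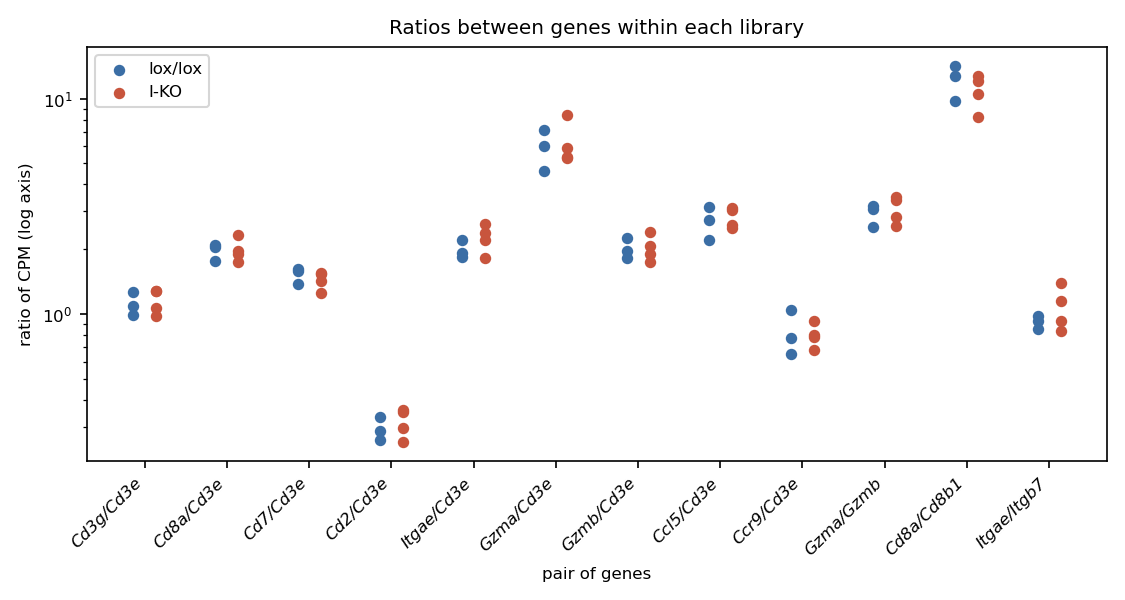
Ratio of the CPM of 2 genes within each library (y axis, log scale) for the 12 pairs, with lox/lox libraries in blue and I-KO libraries in red. The colours overlap for every pair, and Gzma to Cd3e has the widest range of the 9 ratios to Cd3e, 4.62 to 8.40.

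Genes of the wider lists were split between higher and lower means. Outside the 10 genes, 109 genes of 7 lists were tested, of which 63 had a higher mean in I-KO and 46 a lower one, beside 50.6% higher among all genes. The adjusted threshold was passed by 0 of the 109 (limma). An unadjusted p under 0.05 was reached by 4 of the 109, beside 4.74% of all genes, with Cx3cr1 higher in I-KO and Il15ra, Il18r1 and Cx3cl1 lower. The groups did not overlap for 5 of the 109 (6.19% of all genes), namely Cx3cr1, Ctsw and Tbx21, higher in I-KO, and Il15ra and Il18r1, lower. The list of receptor, coreceptor and signalling genes had 15 higher and 7 lower of 22 tested, with a median of 0.02. Homing and retention genes had 9 higher and 12 lower of 21, with a median of -0.01, and among them Cx3cr1, a fractalkine receptor, was at 13.1 ± 0.66 (lox/lox) and 16.1 ± 1.68 CPM (I-KO; difference 0.27, adjusted p = 0.954). Cytotoxic granule and effector genes had 8 higher and 6 lower of 14, with a median of 0.03. In that list Ctsw, a cathepsin of cytotoxic cells, was at 10.2 ± 0.20 and 11.3 ± 0.99 CPM. NK-type receptors had 7 higher and 2 lower of 9 (median 0.10), and ligands and receptors of the 10 genes 9 higher and 5 lower of 14 (median 0.02). T cell transcription factors had 12 higher and 3 lower of 15, with a median of 0.07, and Tbx21, which encodes T-bet, ran from 1.78 to 1.81 CPM in lox/lox and from 1.90 to 2.73 CPM in I-KO (adjusted p = 0.954).

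The cytokines and epithelial factors that maintain these lymphocytes had 5 higher and 13 lower of 18, with a median of -0.05. Il15ra was at 19.70, 20.42 and 20.43 CPM in the controls and at 16.57, 16.11, 15.89 and 13.85 CPM in I-KO 1 to 4. Every I-KO library was below every control, and the means were 20.2 ± 0.42 and 15.6 ± 1.20 CPM. The difference was -0.35 (95% interval -0.55 to -0.16), with an unadjusted p of 0.00255 that did not hold after adjustment over all genes (adjusted p = 0.739, limma). This was the smallest adjusted p of the 109 genes. Il15 itself was at 23.40, 17.72 and 21.18 CPM against 22.03, 21.80, 30.99 and 23.44 CPM, with overlapping groups. Il2rb, the signalling chain shared by the receptors of interleukin 2 and interleukin 15, had means of 15.7 ± 1.46 and 14.1 ± 1.99 CPM. Il18r1, a receptor chain for interleukin 18, was at 4.71 ± 0.28 (lox/lox) and 3.91 ± 0.45 CPM (I-KO; difference -0.22, adjusted p = 0.954).

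Of the epithelial partners, Btnl1 was at 286 to 323 CPM in controls, at 229 CPM in I-KO replicate 1 and at 311 to 334 CPM in I-KO 2 to 4. Btnl6 stood apart in the same library, and was at 184.64, 166.99 and 187.92 CPM in the controls and at 5.51, 178.69, 223.15 and 192.42 CPM in I-KO 1 to 4. The difference of -1.10 (95% interval -3.58 to 1.39, adjusted p = 0.954) rested on I-KO replicate 1 and became 0.13 without it. H2-T3, which encodes the thymus leukemia antigen that binds the CD8α homodimer, was at 219.59, 217.14 and 228.27 CPM against 137.03, 220.53, 274.05 and 236.45 CPM. H2-T3 too was lowest in I-KO replicate 1, a single library, and any link to the levels of the 10 lymphocyte genes was not tested.

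**Figure D5:**
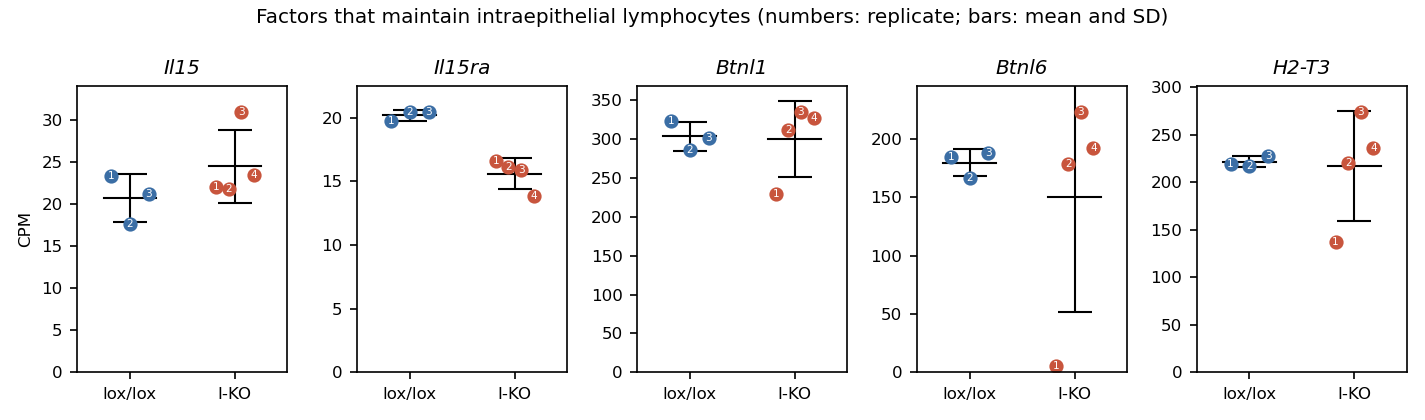
Level in CPM (y axis, from 0) of 5 factors of the epithelial niche of these lymphocytes in each library; points carry the replicate number, and bars give the mean and SD. The 4 Il15ra points of I-KO lie below all 3 control points, while Btnl6 and H2-T3 are low in I-KO replicate 1, at 5.51 and 137.03 CPM.

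By the mean of the 10 standardised profiles, the genes outside the 10 whose levels over the 7 libraries were most alike, of all 13399 tested, were Leprotl1 (Pearson r = 0.99, Spearman rho = 0.93), Tapbpl (0.98 and 0.93), Zap70 (0.98 and 1) and Elac1 (0.98 and 0.96). Irf8, Fgl2, Cnst, Cd274, Tgfbrap1 and Tmcc1 followed, with r from 0.95 to 0.97. Being the top of so many genes over 7 libraries, such values describe likeness only. Zap70, the kinase that binds the CD3 chains, was the only one of these genes that a list of T cell genes held.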

How the data were processed

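Duodenal RNA of 3 Ppara lox/lox and 4 Ppara I-KO mice was extracted with TRIzol, made into TruSeq stranded mRNA libraries and sequenced with single reads of 100 bases, per the labels. The submitters' processing notes name FastQC 0.11.2, TopHat2 2.0.13, Picard 1.80, HTSeq 0.6.1 and the build mm10, and the study's methods name edgeR, whose version, like the strand setting of the counting, was not given in the sources used here. The table deposited by the authors holds signal values, namely counts per gene scaled to adjusted library sizes (CPM, 2 decimals), for 14795 genes. One row with neither symbol nor values was left out.

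Low values fall on multiples of the value of 1 read, which puts the depth at 20741422 to 25885334 reads per library. These estimates served only for reads per gene and counting error. No test was run on reads, by a chosen limit given below, although all low values lay within rounding of whole reads. Counting errors given leave out every other source of spread.

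Genes above 1 CPM in at least 3 libraries (13399) were tested with limma 3.58.1 (R 4.3.3) on log2(CPM + 1), with genotype as the only term and Benjamini-Hochberg adjustment over all of them. A fold on this scale understates the change of low genes. The test was checked on simulated data. Single values and ratios within a library (no pseudocount) were tested by exact two-sided permutation over the 35 ways to divide 7 libraries into 3 and 4. Exon lengths and positions came from GENCODE M21, promoter windows from RefSeq (GRCm38.p6). The 10 genes, the gene lists and the markers were chosen with earlier results of these data known, so lists are described by counts and medians without a test. Named besides the 10 genes were their partners and the list genes whose groups did not overlap. Cx3cl1, Tnf, Prdm1 and the genes around Btnl6 were added after their values were seen. Rn45s, Lars2, Rmrp and Rpph1 were in no fixed list and outside the plan. One gene of the lists is not reported here. Replicate numbers were not used to pair the libraries in the main test. Alternatives were another scaling, pseudocount, filter, variance model and the omission of libraries.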

Additional observations from a re-analysis of the deposited data

How the results depend on the processing

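None of the 10 genes or their partners passed an adjusted p of 0.05 under any alternative, so the direction of each is the sign of a difference that was not called. For the ratios, leaving out a library leaves too few divisions of the rest for an exact p to pass 0.05, so those values bear on direction and size alone. Cd7, Itgae and Ccr9 kept their sign in all 16 alternatives but not their size, and over the 10 genes and all alternatives the smallest adjusted p was 0.734 (limma). The count of genes past an adjusted p of 0.05 was 4, lay between 3 and 5 when a library was left out, and became 12 with sample quality weights, the cause of which was not tested. When each library was left out in turn, the log2 difference ran from -0.15 to 0.052 for Cd3e, -0.11 to 0.098 for Cd3g, -0.18 to 0.079 for Cd8a, -0.095 to 0.19 for Cd2, -0.20 to 0.18 for Gzma, -0.19 to 0.088 for Gzmb, -0.084 to 0.10 for Ccl5, -0.22 to -0.024 for Cd7, 0.028 to 0.23 for Itgae and -0.22 to -0.019 for Ccr9. Among the partners it ran from -0.057 to 0.12 for Cd3d, -0.0040 to 0.25 for Cd247, -0.049 to 0.21 for Cd8b1, -0.18 to 0.011 for Itgb7, -0.046 to 0.068 for Ccl25, -0.091 to 0.15 for Cd48, -0.14 to 0.58 for Sectm1a, -0.13 to 0.031 for Serpinb9, -0.051 to 0.17 for Serpinb6b, -0.20 to 0.13 for H2-T3, -0.086 to 0.097 for Btnl1, -1.57 to 0.13 for Btnl6, -0.085 to 0.11 for Lck and -0.076 to 0.12 for Zap70. For the log2 ratios the ranges were -0.033 to 0.14 for Cd3g to Cd3e, -0.071 to 0.065 for Cd8a to Cd3e, -0.10 to 0.21 for Gzma to Cd3e, -0.081 to 0.089 for Gzmb to Cd3e, -0.068 to 0.19 for Ccl5 to Cd3e, -0.19 to 0.15 for Ccr9 to Cd3e and -0.037 to 0.14 for Gzma to Gzmb. Without the 2 libraries with the highest acinar sums the sign turned for Cd2 (-0.20), Gzma (-0.025), Ccl5 (-0.029), Cd3d (-0.13), Cd8b1 (-0.030), Cd48 (-0.085), Sectm1a (-0.14), H2-T3 (0.12), Btnl1 (0.055), Btnl6 (0.082), Lck (-0.15) and Zap70 (-0.10). With column totals for scaling it turned for Gzma (-0.026), Ccl5 (-0.023), Cd3d (-0.015), Ccl25 (-0.014), Cd48 (-0.016), Lck (-0.028) and Zap70 (-0.019). With sample quality weights it turned for Gzma (-0.16), Ccl5 (-0.047), Ccl25 (-0.028), Cd48 (-0.0065), Btnl1 (0.038), Lck (-0.016) and Zap70 (-0.033).

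With the replicate number as a block, the signs of Cd3g (0.098) and Itgb7 (0.011) turned and 3 genes were called; I-KO replicate 4 has no partner and adds nothing to that difference, and both values equal those without it. The deviations of same-numbered libraries correlated at r = -0.014, 0.18 and -0.0092, within the -0.35 to 0.28 of libraries with different numbers. These values show no pairing by number, and with so few libraries they cannot exclude one. Count models on whole reads were planned and not run, because values given to 2 decimals did not return whole reads within 0.1 of a step in 5 of the 7 libraries. The spread between libraries set a different limit for each gene, from an interval of 0.687 to 1.48 in fold for Gzma to one of 0.778 to 1.14 for Ccr9, and changes inside a gene's interval cannot be told from none.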

Other observations

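I-KO replicate 1 stood apart in genes around Btnl6 on chromosome 17, which were looked at after the Btnl6 value was seen. The class II gene H2-Eb1 was at 29.98 CPM in that library and at 208 to 299 CPM in the 6 others, and Gm8909 was at 12.6 CPM against 109 to 146 CPM. H2-Aa was at 235 CPM against 428 to 808 CPM. Other genes of the region were higher there, with H2-Bl at 1182 CPM against 474 to 672 CPM and H2-Ea-ps at 15.6 CPM against 4.92 to 6.91 CPM. Among genes above 1 CPM in every other library, 6 lay over 3-fold below all of them in I-KO replicate 1. These were Apoo, Btnl6, Gm8909, H2-Eb1, H2-M2 and Zfp820. By the same rule each of the other libraries had between 0 and 3 such genes. Besides Btnl6 itself, around which the window was set, Gm8909 and H2-Eb1 lay within 2 Mb of Btnl6. The share of all genes in that window was not computed. The class I genes H2-K1 (1536 CPM against 1516 to 2138 CPM) and H2-D1 (649 against 395 to 631 CPM) and B2m, which encodes their light chain, were near the range of the other libraries. The levels of the lymphocyte genes in I-KO replicate 1 were given above, and any link to the genes of this region was not tested.

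Tnf, which encodes a cytokine that activated lymphocytes and macrophages release, reached 7.81 CPM in lox/lox replicate 2, with the 6 remaining libraries at 1.78 to 2.39 CPM. Prdm1, whose product Blimp-1 is made in tissue-resident T cells and in enterocytes, reached 47.1 CPM in I-KO replicate 3, with the rest at 25.8 to 35.9 CPM and means of 33.7 ± 2.23 (lox/lox) and 34.3 ± 9.07 CPM (I-KO).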
